A study of Mus musculus with 6 samples.

Results

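Somatostatin neurons (Sst neurons) were taken from single-nucleus RNA sequencing (nucSeq) of the mouse hypothalamus as the neuronal nuclei that carried clear Sst RNA. A nucleus was a member when it held at least 1000 unique molecular identifiers (UMIs, each standing for 1 captured RNA molecule), at least 2 UMIs of the neuronal genes Snap25, Syt1 and Rbfox3 together, at least 3 UMIs of Sst, at least 5 Sst UMIs per 10000 UMIs, and fewer than 2 UMIs of Agrp. The rule found 936 nuclei, 2.70% of the 34707 neuronal nuclei and 2.36% of the 39665 nuclei with at least 1000 UMIs. Because the nuclei were chosen on their Sst UMIs, the Sst values below are a description and carry no test, apart from the share of nuclei that passed the rule. Sst is the single marker of this class, so the name says only that the nuclei hold Sst RNA, and they need not be 1 cell type.

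All mice were wild-type C57Bl/6 males, 6 to 8 weeks old, without a transgene or an injected agent; 12 ate ad libitum (called fed here) and 6 were fasted over 16 h. Whole hypothalami were pooled by 6 mice, nuclei were sorted on the DNA dye DRAQ5, and each of the 2 fed pools and the 1 fasted pool went into 2 droplet libraries. Total depth was 39556605, 31757655, 59083864 and 59940795 UMIs for fed libraries 1 to 4 and 36177621 and 35567902 for fasted libraries 1 and 2. Which fed libraries share a pool is not given in the labels, so each test across genes was fitted under all 3 ways of pairing them and the largest p was kept. The fasted libraries are 2 tubes of the same pool, so the spread between them is technical.

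Somatostatin is a small peptide cut from a precursor that is packed into dense-core vesicles and released beside a fast transmitter. In the hypothalamus, periventricular somatostatin neurons send it to the median eminence, where it restrains growth hormone release from the pituitary, while other somatostatin neurons in the arcuate, ventromedial, tuberal, paraventricular and lateral areas act within the brain through the receptors Sstr1 to Sstr5. The gene is a textbook target of cAMP signalling: the factor CREB binds a cAMP response element before its start site. Mouse Sst lies on chromosome 16 from 23889573 to 23890958 (GRCm38, minus strand) and has 2 exons. Its cAMP response element is shown because the activity and cAMP genes described below are read in the same nuclei; the element was found on the minus strand at chr16:23890875-23890904 of the RefSeq promoter table (GRCm38.p6), and capitals mark the 8 bases TGACGTCA, from 48 to 41 bases before the RefSeq start site.
Sst cAMP response element: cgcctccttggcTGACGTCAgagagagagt
The same bases fall in exon 1 of the longer transcript in the Ensembl annotation, which starts further upstream. The letters TGACGTCA, which read the same on both strands, were present in 508 of 32851 RefSeq promoter windows of 250 bases (1.55%), and the shorter TGACG, which the full element contains, in 17.8% on either strand. A match is a description of the sequence and not a measurement of binding.

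The members were spread very unevenly over the libraries. Fed libraries 1 to 4 gave 67, 48, 389 and 412 Sst neurons and fasted libraries 1 and 2 gave 11 and 9, so that 801 of 936 (85.6%) came from fed libraries 3 and 4. As a share of neuronal nuclei they were 0.896%, 0.826%, 6.24% and 6.57% for fed and 0.243% and 0.205% for fasted libraries. The exact 95% binomial intervals, which cover counting error only, ran from 0.695 to 1.14% in fed library 1, from 5.65 to 6.87% in library 3 and from 0.122 to 0.435% in fasted library 1. Both fasted libraries were below all fed libraries, and fed libraries 1 and 2 were nearer to the fasted libraries than to fed libraries 3 and 4. The mean share was 3.63 ± 3.20% (SD, n = 4) in fed and 0.224 ± 0.0272% (SD, n = 2) in fasted libraries, and a two-sided exact permutation test over libraries gave p = 0.133, the smallest that 4 against 2 can give. The libraries are tubes of 2 fed pools and 1 fasted pool, so this test and these SDs, and those of the transmitter shares below, take tubes of a pool as separate samples. After each nucleus was thinned to 2000 UMIs the shares were 0.299%, 0.227%, 3.87% and 4.29% in fed and 0.0672% and 0.0689% in fasted libraries, with 115, 95, 67 and 69 shallower neuronal nuclei left out in fed and 54 and 41 in fasted libraries. Without fed libraries 3 and 4 the difference between fasted and fed means was -0.637 percentage points against -3.41 with them (exact p = 0.333, 2 against 2).

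The amount of Sst RNA in a member was highest in fed libraries 3 and 4 as well. Fed libraries 1 to 4 had a median of 4, 4, 14 and 13 Sst UMIs per member and a highest value of 99, 34, 198 and 282, whereas both fasted libraries had a median of 5 and highest values of 12 and 11. Members with 20 or more Sst UMIs numbered 3, 1, 154 and 143 in the fed libraries and 0 in both fasted libraries. Summed over members, Sst made up 1367, 1093, 2879 and 2744 counts per 1000000 UMIs of the nuclei summed (CPM) for fed libraries and 786 and 724 for fasted libraries. Summed over all neuronal nuclei, it made up 36.6, 32.1, 246 and 262 CPM for fed and 14.6 and 12.1 CPM for fasted libraries. Over the whole class the median member had 11 Sst UMIs (interquartile range 6 to 25.25), the 94 richest nuclei held 43.9% of the members' Sst UMIs, and the members held 64.4% of all Sst UMIs in neuronal nuclei. Since a nucleus with little Sst RNA drops out of the class, fewer Sst neurons and less Sst RNA per neuron cannot be told apart in these shares.

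**Figure D1:**
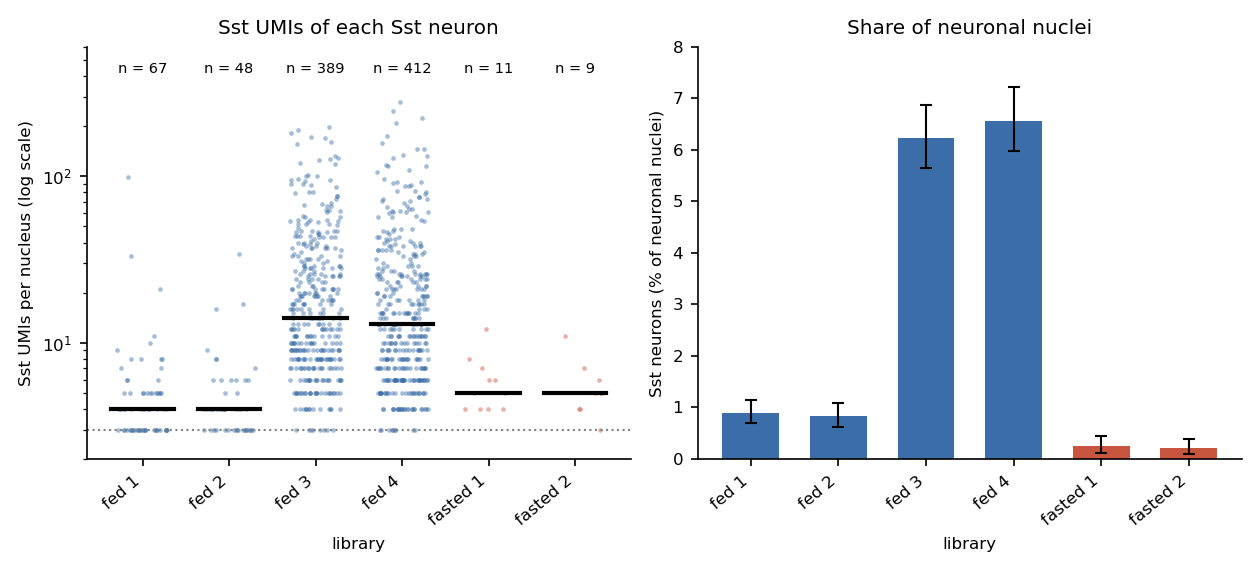
Left, Sst UMIs of each of the 936 Sst neurons (log scale) by library, with the median as a bar and the limit of 3 UMIs as a dotted line; right, Sst neurons as a percentage of neuronal nuclei with exact 95% binomial intervals. Fed libraries 3 and 4 hold most members and nearly all those with 20 or more Sst UMIs, while the fasted libraries hold 11 and 9 members.

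Depth and RNA composition moved with this split. The median member had 4786, 4785, 8478 and 8732 UMIs in fed libraries 1 to 4 and 7382 and 7413 in the fasted libraries, so the fasted libraries were deeper per nucleus than fed libraries 1 and 2 but held fewer members. Ribosomal protein genes took 0.504%, 0.489%, 1.95% and 1.91% of the members' UMIs in the fed and 0.297% and 0.492% in the fasted libraries, and 0.434%, 0.449%, 1.98% and 2.00% in fed and 0.296% and 0.295% in fasted other neurons. The neuronal part of the nuclei, by which the shares were divided, differed as well. Of nuclei with at least 1000 UMIs, 7476 of 8437, 5810 of 6643, 6236 of 6360 and 6269 of 6378 were neuronal in fed libraries 1 to 4. In fasted libraries 1 and 2 it was 4521 of 5974 and 4395 of 5873. The part of depth, ribosomal share and neuronal share in the Sst difference was not tested. What separates libraries 3 and 4 from 1 and 2 (mice, day or preparation) cannot be told apart.

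Free Sst RNA in the droplets was gauged in nuclei of a cell type that should lack it. The glial nuclei counted here also had to hold fewer than 2 UMIs of Snap25, Syt1 and Rbfox3 together. Glial nuclei with more free neuronal RNA were thus left out, so their shares of neuronal RNA can understate free RNA. Of nuclei rich in oligodendrocyte marker RNA, 4.57%, 9.09%, 27.3% and 24.0% held a Sst UMI in fed libraries 1 to 4 (n = 175, 143, 22 and 25, median depth 1630, 1678, 5373.5 and 5308 UMIs) and 2.11% and 2.12% in fasted libraries 1 and 2 (n = 475 and 518, median depth 2467 and 2483 UMIs). Among neuronal nuclei, 11.5%, 10.9%, 43.6% and 47.2% held a Sst UMI in the fed and 7.08% and 6.37% in the fasted libraries. A single Sst UMI was therefore common outside somatostatin cells, but 0 of 1358 oligodendrocyte-marker nuclei and 0 of 827 astrocyte- and tanycyte-marker nuclei passed the Sst limits. Because of the limit on neuronal genes, these counts of 0 cannot show that free RNA never passes the rule. Taken as 3 counts of the total, a count of 0 oligodendrocyte-marker nuclei allows a share of up to 0.632% in fasted library 1 but up to 13.6% in fed library 3 and 12.0% in fed library 4, where most members lie. Per UMI, Sst made up 22.0, 49.5, 68.0 and 44.4 CPM of these nuclei in fed and 7.33 and 7.39 CPM in fasted libraries. The glial nuclei were also shallower than the members, at a median of 2325.5 against 8100.5 UMIs over all libraries. At the edge of the rule, 63 members had exactly 3 Sst UMIs (median 6.54 per 10000) and 56 nuclei just outside had 2 (median 5.95 per 10000). A further 522 nuclei had at least 3 Sst UMIs but under 5 per 10000, and 86 that passed every Sst limit held 2 or more Agrp UMIs. No cell barcode was shared by members of different libraries, and 42 members (4.49%) were scored as doublets, against 5.12% of other neurons.

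At a limit of 1 UMI, most Sst neurons carried GABA genes. At least 1 UMI of Gad1 or Gad2, which make GABA, and none of Slc17a6, the vesicular glutamate transporter of the hypothalamus, was found in 542 members (57.9%, exact 95% interval 54.7 to 61.1%). Slc17a6 without Gad1 or Gad2 was found in 117 (12.5%, 10.4 to 14.8%), both in 132 (14.1%), and neither in 145 (15.5%). Among the 25504 other neurons, which met the same neuronal rule with 0 Sst UMIs and fewer than 2 of Agrp, 30.9% were of the GABA kind and 27.3% of the Slc17a6 kind, but these come mostly from libraries other than fed 3 and 4. Within fed libraries 3 and 4, the GABA kind was 61.4% and 55.6% of Sst neurons against 37.8% and 35.8% of other neurons, and the Slc17a6 kind 12.9% and 14.1% against 31.9% and 33.3%. Nuclei with both were 13.4% and 17.7% against 18.4% and 17.9% there, and nuclei with neither 12.3% and 12.6% against 11.9% and 13.0%. The vesicular GABA transporter Slc32a1, which the division did not use, had a UMI in 63.8% of GABA members and in 13.7% of Slc17a6 members. It had one in 44.7% of members with both and 46.9% of those with neither. In fed libraries 1 to 4 it was found in 13.5%, 24.0%, 69.0% and 71.6% of GABA members and in 30.4%, 22.2%, 54.2% and 53.8% of those with neither. Of oligodendrocyte-marker nuclei, at a median depth of 2325.5 UMIs, 3.17% held a Gad1 or Gad2 UMI and 3.09% a Slc17a6 UMI.

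The members with both kinds of RNA and those with neither differed in depth. Nuclei with both had a median of 10306 UMIs, those with neither 5914, and 98 of the 132 with both rested on 1 UMI of either side. Doublets were 12.1% of the nuclei with both and 3.51% of the GABA nuclei. When 2 UMIs were asked for, 436 members were of the GABA kind, 105 of the Slc17a6 kind, 34 of both and 361 of neither. The GABA share was 55.2%, 52.1%, 61.4% and 55.6% in fed libraries 1 to 4 and 63.6% and 55.6% in the fasted ones (7 of 11 and 5 of 9 nuclei). The means were 56.1 ± 3.90% (SD, n = 4) and 59.6 ± 5.71% (SD, n = 2), a difference smaller than the spread within either group (two-sided exact permutation p = 0.4); thinning to 2000 UMIs turned it to -3.98 percentage points, and leaving out fasted library 1 turned it to -0.527. The Slc17a6 share was 7.46%, 4.17%, 12.9% and 14.1% in the fed libraries, and the fasted libraries held 0 and 2 such nuclei.

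**Figure D2:**
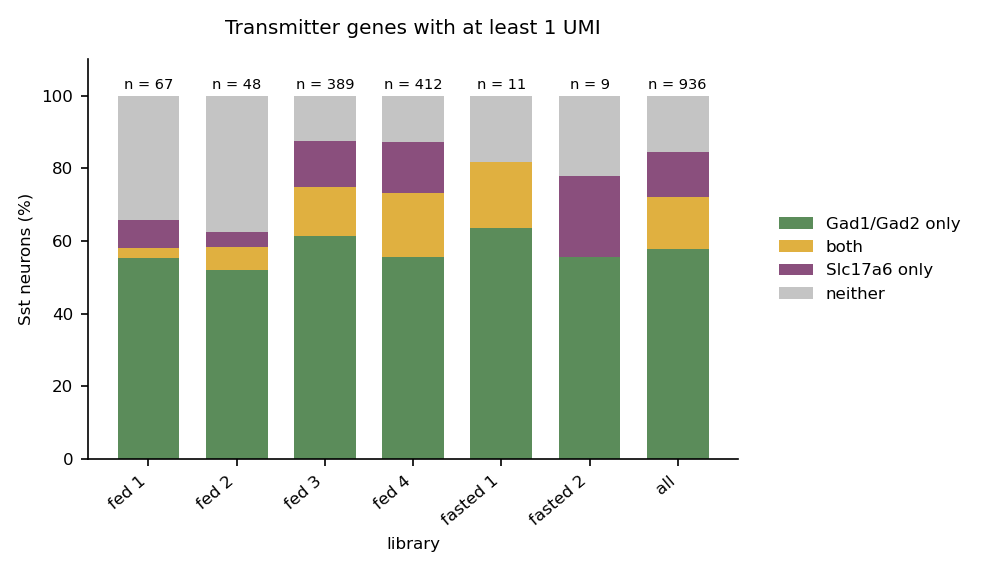
Percentage of Sst neurons in each library, and in all libraries together, that held at least 1 UMI of Gad1 or Gad2 only, of Slc17a6 only, of both or of neither. GABA members made up between 52.1% and 63.6% in every library, and nuclei with neither were most frequent (34.3% and 37.5%) in the shallow fed libraries 1 and 2.

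The next comparison asked which genes other than Sst differed between Sst neurons and other neurons of the same pools. Nuclei with 2 or more Agrp UMIs were not among the other neurons, so it does not set Sst neurons apart from AgRP neurons. Summed UMIs were tested with the quasi-likelihood test of edgeR, with the pool as a block, and of 22410 genes 353 were higher (1.58%) and 398 lower (1.78%) in Sst neurons at an adjusted p under 0.05. Each fold is that of the pairing with the largest p, where libraries of unlike size are summed, so it can lie outside the range of the ratios within libraries. The test shares its estimate of spread over genes, so a very small p does not measure how alike a gene was between the 3 pools. Genes are named by their smallest ratio within any library, so agreement over the 6 libraries is part of the choice and no separate support. Of the 10 genes named as higher, 3 encode peptide receptors. Pth2r, the receptor of the tuberoinfundibular peptide, reached 103, 76.0, 72.5 and 63.2 CPM in the Sst neurons of fed libraries 1 to 4 and 145 and 29.0 in those of fasted libraries 1 and 2. In other neurons it lay between 4.37 and 7.28 CPM, so that no library overlapped (log2 fold change 3.86, SE 0.19, edgeR adjusted p = 2.94e-85). Tacr1, the substance P receptor, had 55.9, 63.3, 42.1 and 51.4 CPM in fed and 218 and 101 in fasted Sst neurons against 11.1 to 18.8 in other neurons (log2 fold change 2.23, SE 0.17, edgeR adjusted p = 5.39e-36). Calcr, the calcitonin receptor, had 99.5, 127, 38.2 and 37.8 CPM in fed and 60.5 and 43.4 in fasted Sst neurons against 15.8 to 17.5 in other neurons (log2 fold change 1.70, SE 0.17, edgeR adjusted p = 8.61e-22). Sst neurons were above other neurons in all 6 libraries for each of these 3 receptors, which follows from how they were chosen. AgRP nuclei were taken as neuronal nuclei with at least 3 Agrp UMIs and 5 per 10000. Calcr was at 141 CPM in fed and 133 CPM in fasted AgRP nuclei, above all 6 libraries of Sst neurons, and this difference was not tested.

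The other 7 genes named on the higher side were of mixed function. Dlk1, an imprinted gene for a Delta-like membrane protein, had 289, 257, 285 and 298 CPM in fed and 327 and 333 in fasted Sst neurons against 82.3 to 130 in other neurons (log2 fold change 1.40, SE 0.11, edgeR adjusted p = 3.60e-33). AgRP nuclei had more of it, at 357 CPM in fed and 517 CPM in fasted libraries (not tested). Arhgap6, which encodes a GTPase-activating protein, had a log2 fold change of 1.65 (SE 0.11), Stac, an adaptor of L-type calcium channels, 1.82 (SE 0.14), and the kinase Lrrk2 1.50 (SE 0.15). Arhgap6 was at 515 CPM in fed and 772 CPM in fasted AgRP nuclei. Pnoc, the nociceptin precursor, was higher by 1.36 (SE 0.14; 2.18 without fed library 4), the membrane protein gene Ano4 by 1.01 (SE 0.11) and the transcription factor Sox6 by 0.90 (SE 0.10).

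The genes named on the lower side were Gpr149, Cdh12, Cnr1, Tafa2, Tafa1, Zfhx3, Zfhx4, Slc17a6, Tac1 and Stxbp6. Zfhx3, a large zinc finger homeobox factor, had 264, 257, 284 and 247 CPM in fed and 266 and 246 in fasted Sst neurons against 472 to 671 in other neurons (log2 fold change -1.12, SE 0.12, edgeR adjusted p = 1.90e-19), and its relative Zfhx4 fell by 1.01. Tafa1, which encodes a secreted chemokine-like protein, had 193, 177, 206 and 167 CPM in fed and 24.2 and 72.4 in fasted Sst neurons against 331 to 609 in other neurons (log2 fold change -1.44, SE 0.12, edgeR adjusted p = 2.61e-30). The orphan receptor Gpr149 was at -1.53 (SE 0.16), the adhesion gene Cdh12 at -1.70 (SE 0.13), the cannabinoid receptor Cnr1 at -0.81 (SE 0.10), and Slc17a6 at -0.56 (SE 0.08; -0.94 without fed library 4). The substance P precursor Tac1 was at -0.40 (SE 0.08), and its call was lost without fed library 3 or 4. Its fold was -0.81, -0.76 and -0.61 without fed library 1, 2 or 4. Within each library the log2 ratio was at least 0.89 in size for Cnr1, 0.74 for Slc17a6 and 0.68 for Tac1.

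**Figure D3:**
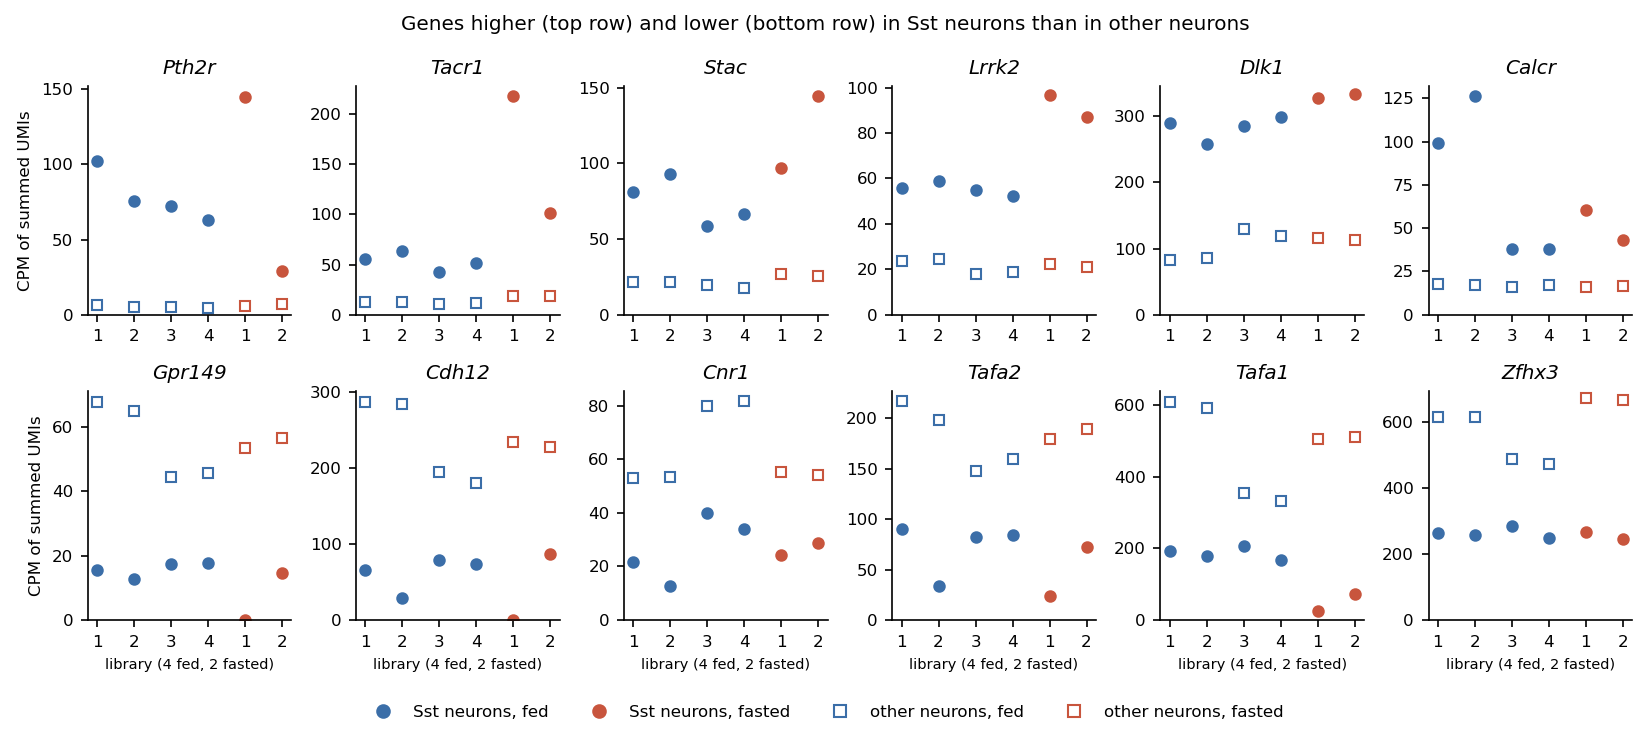
CPM of summed UMIs in Sst neurons (filled) and other neurons (open) of each library (4 fed, 2 fasted) for the first 6 genes named as higher and the first 6 named as lower. The genes were picked by their smallest ratio within any library, so in every panel the Sst neurons lie on the same side of the other neurons in all 6 libraries.

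Among the other genes of the somatostatin system, Sst neurons held more RNA of the receptors Sstr2 and Sstr1 than other neurons did. Sstr2 had 21.8, 29.5, 27.3 and 28.5 CPM in fed and 12.1 and 43.4 in fasted Sst neurons against 5.67 to 10.1 in other neurons (log2 fold change 1.78, SE 0.24, edgeR adjusted p = 4.11e-11). Sstr1 had 12.4, 16.9, 12.1 and 11.5 CPM in fed and 24.2 and 14.5 in fasted Sst neurons against 2.95 to 6.89 in other neurons (log2 fold change 1.19, SE 0.32, edgeR adjusted p = 0.00844), and its call was lost without fed library 1, 2 or 3. No library overlapped for either receptor, but the fasted members held 82663 and 69075 UMIs in all, so the fasted values rest on very few counts. The cortistatin gene Cort and the receptors Sstr3 and Sstr5 were tested without a call, and Sstr4 was too low to test.

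Peptide genes moved both ways. Of 17 co-expressed peptide genes, 2 were higher and 6 lower in Sst neurons, with a median log2 fold change of -0.25 against -0.04 over all genes tested. Over all genes, 1.58% were higher and 1.78% lower. Npy had 37.3, 84.4, 89.4 and 96.8 CPM in the fed and 60.5 and 0 in the fasted Sst neurons against 5.75 to 33.2 in other neurons (log2 fold change 1.71, SE 0.15, edgeR adjusted p = 1.19e-26), and Pnoc was the other higher one. Both groups were free of nuclei with 2 or more Agrp UMIs. The lower ones were Tac1, Crh, Vip, Gal (-0.54), Grp (-0.84) and Adcyap1 (-0.78). Crh and Vip were near 0 in Sst neurons, at most 1.69 and 2.13 CPM, and the call was lost without fed library 4 for Crh and 3 for Vip. The fold of Vip was -1.05 without fed library 3. Of 12 genes of peptide processing and storage, the granins Scg2 (0.59, SE 0.12) and Vgf (0.97, SE 0.14; 1.54 without fed library 4) were higher and none lower. Pcsk1 and Pcsk2, which cut precursors, and Cpe and Pam, which trim and amidate the products, passed no test. Of 10 genes of the growth hormone axis that were tested, Ghrh (-0.90) was lower, and the growth hormone receptor Ghr did not pass (0.15, SE 0.07, edgeR adjusted p = 0.357).

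Of the transmitter genes, those of GABA were higher. Gad1 (0.73, SE 0.12; 1.17 without fed library 3), Gad2 (0.71, SE 0.12; 1.11 without fed library 4) and Slc32a1 (0.69, SE 0.13) were higher and Slc17a6 lower among 13 genes of GABA and glutamate machinery; when GABA nuclei alone were compared, Slc32a1 was at -0.11. Of 33 transcription factors of lineage and region, 7 were higher and 11 lower, beside 1.58% and 1.78% of all genes tested. Otp, a factor of neuroendocrine neurons, had 62.2, 54.9, 36.8 and 40.8 CPM in fed and 60.5 and 14.5 in fasted Sst neurons against 5.01 to 9.45 in other neurons (log2 fold change 2.38, SE 0.22, edgeR adjusted p = 5.82e-25). Meis2 (2.61), Six6 (1.52), Bcl11b (1.50), Six3 (1.03) and Isl1 (0.89) were among the other higher factors, although Meis2 was at 0 CPM in fed library 2 and in both fasted libraries. Of the subclusters described below, Meis2 was at 1162 CPM in subcluster 11 (30 nuclei) and 117 CPM in subcluster 1 (in 16.1% of its nuclei). In all other subclusters Meis2 was at most 4.59 CPM. AgRP nuclei held 74.3 and 78.1 CPM of Otp and 189 and 223 CPM of Isl1 in fed and fasted libraries. The lower factors included Lhx1, Nkx2-1, Sox14, Lef1, Maf, Pou3f2, Tcf7l2 and Foxp2. Of 10 genes typical of cortical interneurons, 0 were called by edgeR (1 at an unadjusted p under 0.05) and 0 by DESeq2.

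Of 29 receptors of metabolic and stress hormones, 5 were higher and 1 lower, beside 1.58% and 1.78% of all genes tested. Ramp1, a partner of the calcitonin receptor family, was higher by 1.87 (SE 0.24), Calcr by 1.70, the thyroid hormone receptor Thrb by 0.90 (SE 0.11), the corticotropin-releasing hormone receptor Crhr1 by 1.31 (SE 0.30) and the opioid receptor Oprm1 by 0.51 (SE 0.12). Ramp1 was at 0 CPM in both fasted libraries, where 20 nuclei were read. The leptin receptor Lepr was lower (-0.94, SE 0.21), with 12.4, 4.22, 11.2 and 11.7 CPM in fed and 24.2 and 14.5 in fasted Sst neurons against 20.8 to 29.9 in other neurons, and was below the other neurons of the same library in all 6 libraries. The calls of Crhr1 (without fed library 3), Lepr (without 3 or 4) and Oprm1 (without any of the 4; 0.31 without library 4) did not survive leaving a library out. Of 10 subtype genes that the study named from an atlas including these samples, which makes them no independent evidence, 6 were higher and 0 lower, among them the synaptic adhesion gene Il1rapl2 (1.57, SE 0.11) and the dopamine synthesis gene Th (1.25, SE 0.26).

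Activity-dependent genes were the list with the most higher calls. Of 27 such genes, 16 were higher and 2 lower in Sst neurons, with a median log2 fold change of 0.91 against -0.04 over all genes tested. Over all genes, 1.58% were higher and 1.78% lower. The immediate early gene Fos had 71.5, 16.9, 19.1 and 16.3 CPM in fed and 145 and 203 in fasted Sst neurons against 10.1 to 13.8 in other neurons (log2 fold change 1.47, SE 0.21, edgeR adjusted p = 1.19e-09). Junb was higher by 1.07 (SE 0.11; 1.77 without fed library 4) and Nr4a1 by 1.42 (SE 0.20); for both, fed library 1 stood above the other fed libraries, with 211 CPM of Junb against 59.1, 31.8 and 21.6. The 2 lower genes were Nr4a2 (-1.94) and Nptx2 (-0.80; -1.24 without fed library 1), both lost without fed library 3 or 4. When the members were clustered, the levels were uneven. Subcluster 4, with 99 of the 936 nuclei, had 179 CPM of Junb against at most 37.9 in any other subcluster. Its Nr4a1 was at 77.0 and its Npas4 at 62.2 CPM, against at most 37.9 and 24.6 elsewhere. DESeq2 called 5 higher and 0 lower, and without fed library 1 edgeR called 12 higher and 2 lower. Of 20 CREB pathway genes 3 were higher (Pde4b, Pde10a and Adcy2) and 0 lower, of 23 potassium and calcium channel genes 2 were higher and 3 lower, and of 15 glucocorticoid targets and 15 FoxO and fasting genes edgeR called 0 in either direction (3 and 2 at an unadjusted p under 0.05), as did DESeq2.

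None of the genes of the oligodendrocyte, oligodendrocyte precursor, astrocyte and tanycyte, and microglia and vessel lists was called higher in Sst neurons, and 1 of 10 oligodendrocyte genes and 1 of 9 astrocyte and tanycyte genes was lower. Oligodendrocyte markers summed to 112, 114, 127 and 123 CPM in fed and 133 and 116 CPM in fasted Sst neurons against 150 to 355 CPM in other neurons, and Mbp was the most abundant of them in every library. Astrocyte and tanycyte markers summed to more in Sst than in other neurons in fed library 1 (112 against 92.2 CPM). Microglia and vessel markers did so in fed library 2 (67.5 against 57.5 CPM). Each of these lists summed to less in Sst neurons in every other library. Of 10 marker genes of other peptide neurons that were tested (Avp, Oxt, Pomc and others), 7 were lower and 0 higher, beside 1.78% and 1.58% of all genes tested. The list summed to 211, 232, 831 and 783 CPM in fed and 48.4 and 116 CPM in fasted Sst neurons against 371, 419, 2225 and 2162 CPM in fed and 184 and 193 CPM in fasted other neurons, so these peptide markers were high in fed libraries 3 and 4 in both classes, as Sst was. Avp, Oxt or Pomc was the most abundant of them in each library. The part of free RNA in these levels was not tested. Leaving out a fed library lowered the number of calls over all genes, to 237 higher and 241 lower without fed library 1, to 237 and 221 without library 2, to 207 and 219 without library 3 and to 203 and 178 without library 4. Without both libraries 3 and 4, 140 of the 353 higher and 183 of the 398 lower genes were still called, and 337 of 350 and 397 of 398 kept their direction.

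A further comparison, of the 542 GABA members with the 117 Slc17a6 members, described how the class divides. Slc17a6 members numbered 5, 2, 50 and 58 in fed libraries 1 to 4 and 0 and 2 in fasted libraries 1 and 2. It thus rests mostly on fed libraries 3 and 4. Of 11973 genes tested without Gad1, Gad2 and Slc17a6, 62 were higher (0.518%) and 52 lower (0.434%) in GABA Sst neurons. Isl1, a LIM homeobox factor, had 131, 149, 141 and 140 CPM in GABA members of the fed libraries and 254 and 168 in those of the fasted libraries, against 0, 0, 18.8 and 24.7 CPM in Slc17a6 members of the fed libraries and 0 in the 2 such nuclei of fasted library 2 (log2 fold change 2.91, SE 0.49, edgeR adjusted p = 2.57e-06). On the Slc17a6 side, the factor Ebf3 had 267, 114, 73.0 and 77.6 CPM in the fed libraries and 356 in fasted library 2, against at most 4.16 CPM in GABA members (log2 fold change -5.27, SE 0.50, edgeR adjusted p = 7.27e-22). Sim1, a factor of paraventricular and nearby glutamate neurons, was lower in GABA members as well (-4.18, SE 0.45), while Meis2 (3.64), Six6 (3.22), Prox1 (3.20), Bcl11b (2.47) and Six3 (2.20) were higher. Of 22 transcription factors tested, 6 were higher and 1 lower.

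Of 12 peptide genes tested between the kinds, 4 were lower and 1 higher in GABA members, beside 0.434% and 0.518% of all genes tested. The opioid precursor Penk had 16.3, 8.28, 23.1 and 13.7 CPM in GABA members and 0, 114, 79.3 and 192 CPM in Slc17a6 members of the fed libraries, so libraries overlapped at 0 in library 1, where 5 nuclei were of the Slc17a6 kind (log2 fold change -2.80, SE 0.45, edgeR adjusted p = 3.82e-07). Cck (-2.45), Trh (-2.06), the thyrotropin-releasing hormone precursor, and Adcyap1 (-3.05), the PACAP precursor, were lower in GABA members too, and Npy (2.33) was higher. The call of Trh was lost without fed library 1 or 2, and that of Npy without fed library 1 or 4. Slc32a1 was higher in GABA members by 3.47 (SE 0.55). Pth2r (2.82, SE 0.53), the adaptor genes Lmo7 (4.42) and Sntb1 (3.57), Sox6 (3.58), the ephrin receptor Epha3 (2.48) and the peptidase Ecel1 (2.11) were the remaining genes named as higher. The genes named as lower after Ebf3 were Chst8 (-3.01), Ltbp1 (-2.81), Cacna2d1 (-1.57), Pcsk5 (-1.94), the prolactin receptor Prlr (-1.68), Unc13c (-1.44), Dkk3 (-1.75), Plpp4 (-1.50) and Sgcd (-1.83).

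Of 21 hormone receptors tested between the kinds, Ramp1 (2.11) and Thrb (1.52) were higher and Mc4r (-2.25), the melanocortin receptor, and Prlr lower in GABA members. Over all genes tested between the kinds, 0.518% were higher and 0.434% lower. Of 19 activity genes, Junb (1.80) and Gem (3.81) were higher and Bdnf (-1.65) was lower, and of the study's 10 subtype genes Th (3.66) was higher and Unc13c lower. The growth hormone, peptide processing, channel, CREB, glucocorticoid, FoxO, interneuron and somatostatin system lists had no call by edgeR (0 to 3 genes a list at an unadjusted p under 0.05) or DESeq2, and neither had the markers of other cells (0 or 1 a list). Of the 36 genes given here and above for this division, 6 (Epha3, Isl1, Lmo7, Pth2r, Sim1 and Sox6) kept their call in all 6 fits that left out a library. Another 13, among them Ebf3, Meis2, Six6, Penk, Cck, Adcyap1 and Slc32a1, kept it in the 4 fits that could test them, which were not those without fed library 3 or 4, and 17 lost it in some fit. Unc13c and Junb lost it without any of the 4 fed libraries, and Prox1 and Gem without fed library 2 or either fasted library. Six3, Pcsk5 and Sgcd lost it without fed library 1, Cacna2d1, Prlr and Plpp4 without fed library 1 or 2, and Ecel1 without fed library 1 or 4. Thrb lost it without fed library 1, 3 or 4, Bcl11b without fed library 4, Dkk3 without fed library 2 or fasted library 1, and Mc4r without fasted library 1. The smallest counts came without fed library 3 (18 higher, 10 lower) and without library 4 (13 and 11), where 4228 genes could be tested; without library 2 they were 37 and 38. DESeq2 called 3 higher and 6 lower.

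Clustering of the 936 nuclei on their 1500 most variable genes gave 15 subclusters, which are described by their leading genes without a test, since the same values formed them. Subclusters 2, 3, 4, 5 and 6 (133, 130, 99, 86 and 54 nuclei) held more GABA nuclei than any other kind. Subcluster 2 was led by Enox2 and Cntn5 and held Tbx3 at 55 CPM, while Avp, next by its ratio to the other members, was present in 48.9% of its nuclei against 56.0% or more in each other subcluster, subcluster 3 by Dnah11, the parathyroid hormone-like gene Pthlh and Abi3bp, and subcluster 4 by Lrrk2, Junb and Sox2ot, with Cartpt at 994 CPM. Subcluster 5 was led by Npy (672 CPM against 35 in the other members), Dach2 and Pnoc (547 against 63), with Nts at 301 CPM, and subcluster 6 by Gpc3, Zeb2 and Trpm3 with Th at 86 CPM. Subclusters 7, 9, 10 and 14 held most Slc17a6 members: 7 was led by Ebf3, Nxph4 and Cck, 9 by Mc4r, 10 by Trh (919 CPM against 55) and Gpc5, and 14, with 16 nuclei, by the growth factor Angpt1. Sim1 reached 119, 112 and 64 CPM in subclusters 7, 10 and 14 and 0 in subcluster 9, where Sox14 was at 50 CPM.

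The other subclusters, with more GABA nuclei than any other kind, were 8 (Pbx3, Col25a1 and Foxp2), 11 (Meis2 at 1162 CPM against 22, with Tac1), 12 (Qrfpr and Tac2, with Six6), 13 (Tbx3os1, Crabp1 and Npy5r, with Esr1) and 15, whose 7 nuclei were led by Gulp1 and Th, with the decarboxylase gene Ddc. Subcluster 1 (143 nuclei, led by Nfib, Gal and Cdh12) had 74 GABA and 26 Slc17a6 nuclei and held 22 of the 42 doublets. Summed over libraries, Sst itself differed widely between subclusters, from 831 CPM in subcluster 9 and 978 in 15 to 7187 in 5 and 12677 in 14. These sums mix libraries in different parts, and subclusters 10, 14 and 15 (39, 16 and 7 nuclei) held members of fed libraries 3 and 4 alone. Within fed library 3, Sst was at 790, 900, 8887 and 11191.5 CPM in subclusters 9, 15, 5 and 14.

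**Figure D4:**
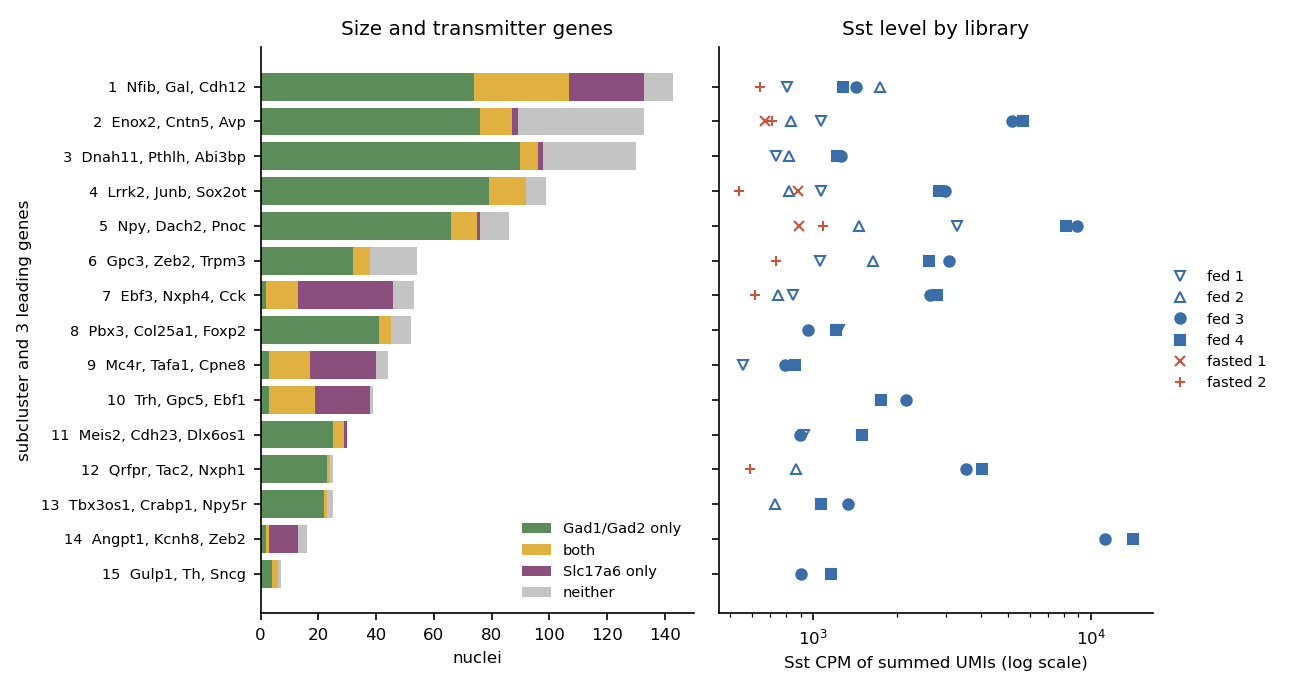
Left, number of Sst neurons in each of 15 subclusters by transmitter genes, with the 3 leading genes; right, Sst CPM of each subcluster in each library that holds nuclei of it (log scale). Subclusters 7, 9, 10 and 14 hold most Slc17a6 nuclei, and in subclusters 2, 4 and 5 fed libraries 3 and 4 lie to the right of the other libraries.

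Within a subcluster the libraries still differed in Sst. In subcluster 5 the median was 4, 6, 77.5 and 75 Sst UMIs per nucleus in fed libraries 1 to 4 (11, 10, 30 and 29 nuclei) and 6 and 8 in fasted libraries 1 and 2 (4 and 2 nuclei). In subcluster 2 it was 4, 4, 39 and 36 in the fed (25, 17, 43 and 42 nuclei) and 4 in both fasted libraries (5 and 1 nuclei), and in subcluster 4 it was 5, 4, 25 and 21.5 against 8.5 and 5. Fed libraries 3 and 4 were thus the high ones in each of these subclusters, and fasted libraries lay nearer to fed libraries 1 and 2. Without the rule on Sst, neuronal nuclei with at least 2000 UMIs were thinned to 2000 UMIs and searched for 7 leading genes of subcluster 5. These were Dach2, Sox6, Rmst, Ghr, Kcnmb2, Sema3c and Ptprk, chosen after their values were seen. Nuclei that still held at least 4 of the 7, with fewer than 2 Agrp UMIs, were 1.60%, 1.52%, 0.503% and 0.548% of them in the fed and 1.10% and 1.10% in the fasted libraries. Thinning misses nuclei that hold these genes at full depth. The Sst level of the nuclei found, before thinning, was 324, 149, 1160 and 2887 CPM in the fed and 69.1 and 52.7 CPM in the fasted libraries. Only 2.08% to 38.2% of these nuclei were members, and Sox6, a gene of the set, was itself lower in other neurons of fed libraries 3 and 4 (16.9 and 17.6 CPM) than of the other libraries (32.2 to 62.7 CPM). For 7 leading genes of subcluster 2 the shares were 0.367%, 0.507%, 0.146% and 0.161% in fed and 0.336% and 0.482% in fasted libraries, from 27, 29, 9, 10, 15 and 21 nuclei. For those of subcluster 4 they were 0.122%, 0.0700%, 0.0973% and 0.0968% in fed and 0.269% and 0.345% in fasted libraries, from 9, 4, 6, 6, 12 and 15 nuclei. The exact 95% intervals were wide, from 0.0559 to 0.232% in fed library 1, 0.0191 to 0.179% in fed library 2, 0.139 to 0.469% in fasted library 1 and 0.193 to 0.568% in fasted library 2, and the difference was not tested.

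The last comparison asked what fasting changed in Sst neurons, and it rests on 20 fasted nuclei with 82663 and 69075 UMIs in all. Of 13583 genes tested, edgeR called 0 (0%) higher and 0 (0%) lower; 399 passed an unadjusted p under 0.05, and DESeq2 called 0 (135 at an unadjusted p under 0.05). These counts keep the largest p of the 3 pairings of fed libraries, and they differ widely between pairings. With pools 1+2 and 3+4 edgeR called 0 and 0 (404 at an unadjusted p under 0.05). With pools 1+3 and 2+4 edgeR called 297 higher and 824 lower, and with pools 1+4 and 2+3 it called 210 and 645. The labels do not give the true pairing, so the number of genes that fasting changed is not settled by these counts. In depth and ribosomal share, fed library 1 was close to 2 and library 3 to 4, which is the pairing with 0 calls. The median member had 4786, 4785, 8478 and 8732 UMIs in fed libraries 1 to 4, with 0.504%, 0.489%, 1.95% and 1.91% from ribosomal protein genes. The other pairings join unlike libraries. The 2 fasted values exceeded every fed value for 1491 genes (11%) and fell under every fed value for 2389 (17.6%). A gene was tested if 2 libraries held 10 counts of it, which fed libraries 3 and 4 alone can meet. Without fed library 3, 6670 genes could be tested. The filter thus favours genes high in fed libraries, and the count of genes under every fed value is no evidence of a fall. Of the 20 fasted nuclei, 6 belonged to subcluster 2, 6 to subcluster 5, 3 to subcluster 4, 2 to subcluster 7 and 1 each to subclusters 1, 6 and 12, so the fasted and fed sums mix subclusters in different parts, and the part of this in the result was not tested. Such counts are read against zeros: a gene with no UMI in 20 nuclei is listed at 0, and the 10 genes the rule named as lower (Ddx27, Hspbp1, Emc4, Hint2, Larp7, Polr2i, Inha, Ets2, Nckipsd and Epdr1) had 0 counts in both fasted libraries, so no fold is given. Of the 10 named as higher, Sntb1 had 9.32, 29.5, 38.8 and 25.6 CPM in the fed and 121 and 130 in the fasted libraries (10 and 9 counts) and Tnfrsf23, a decoy receptor of the TNF family, 12.4, 21.1, 9.27 and 8.80 against 133 and 86.9 (11 and 6 counts); the others (Btbd16, Itpkb, Enkur, Tbc1d8b, Rhebl1, Dennd4b, Aifm2 and Etv3) rested on 2 to 4 counts in each fasted library. None of them passed (edgeR adjusted p = 0.894).

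For the lists, the count of members whose fasted libraries both lay above the fed ones was 9 of 21 activity genes, 5 of 13 glucocorticoid targets, 4 of 23 channel genes and 3 of 20 CREB genes, beside 11% of all genes, and 0 of 2 tested genes of the somatostatin system. Of 14 peptides tested, 5 lay below all fed libraries and 0 above, beside 17.6% of all genes. The filter on counts favours genes high in fed libraries here as well. The peptide processing inhibitor Pcsk1n had 749, 924, 2568 and 2444 CPM in the fed and 278 and 246 CPM in the fasted libraries (log2 fold change -2.79, SE 0.80, edgeR adjusted p = 0.894). In other neurons it followed the same library order, with 604, 670, 2973 and 2899 CPM in fed and 343 and 332 CPM in fasted libraries.

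Activity genes were read nucleus by nucleus as well. Of fasted Sst neurons 4 of 11 and 3 of 9 held a Fos UMI, 35.0% together (exact 95% interval 15.4 to 59.2%), against 85 of 916 fed Sst neurons (9.28%, 7.48 to 11.3%). Among other neurons the shares were 5.05% in fasted and 4.79% in fed libraries, and in oligodendrocyte-marker nuclei, which gauge free RNA, 0.403% (median depth 2474 UMIs) and 0.822% (1782 UMIs). Thinned to 2000 UMIs, 5 of 20 fasted Sst neurons (25.0%) and 40 of 910 fed ones (4.40%) held Fos, against 1.83% and 1.85% of other neurons. These shares were not tested: the intervals cover counting error only and take nuclei as independent, although all fasted nuclei share a single pool. Fos itself did not pass in the comparison of fasted with fed Sst neurons (log2 fold change 2.39, SE 0.68, edgeR adjusted p = 0.894), and fed library 1, with 71.5 CPM, lay between the other fed libraries and the fasted ones.

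Whether the fasting difference in Sst neurons differed from that in other neurons was tested as an interaction, which has few degrees of freedom with 3 pools. The fasted side is a single pool, whose spread is assumed to be that of the fed pools. Of 22410 genes, the log2 difference of fasted from fed was more positive in Sst neurons than in other neurons for 11 (0.0491%) and more negative for 7 (0.0312%). The noncoding gene 1700016P03Rik, known as the host of cAMP-responsive microRNAs, had 218, 80.2, 55.4 and 51.4 CPM in fed and 532 and 376 CPM in fasted Sst neurons, against 46.1, 44.7, 36.7 and 34.9 CPM in fed and 64.0 and 60.5 CPM in fasted other neurons (interaction log2 2.15, SE 0.23, edgeR adjusted p = 2.97e-06). Its 44 and 26 fasted counts came from 7 and 6 nuclei, 28 and 10 of them from 1 nucleus each. Fos (2.82, SE 0.40) and the antiproliferative immediate early gene Btg2 (2.00, SE 0.47, in 4 nuclei of each fasted library) were the other activity genes among the 11, out of 27 tested. The remaining ones were Olfm3, Tyr, Cacng3, Tnfrsf23, Thsd4, Prtg, Inhba and Gadd45g, and the 7 with a more negative difference were Galnt13, Sox2ot, Tafa1, Slc35f1, Rgs6, Alcam and Grik1.

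None of these 18 calls held in every fit that left out a library. Without fed library 2 edgeR called 0 genes (690 at an unadjusted p under 0.05), without library 1 it called 2 higher and 0 lower, and without library 3 or 4 it called 2 higher and 1 lower. Without fasted library 1 it called 15 and 8, without fasted library 2 11 and 14, and without both fed libraries 3 and 4 it called 2 and 2.

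**Figure D5:**
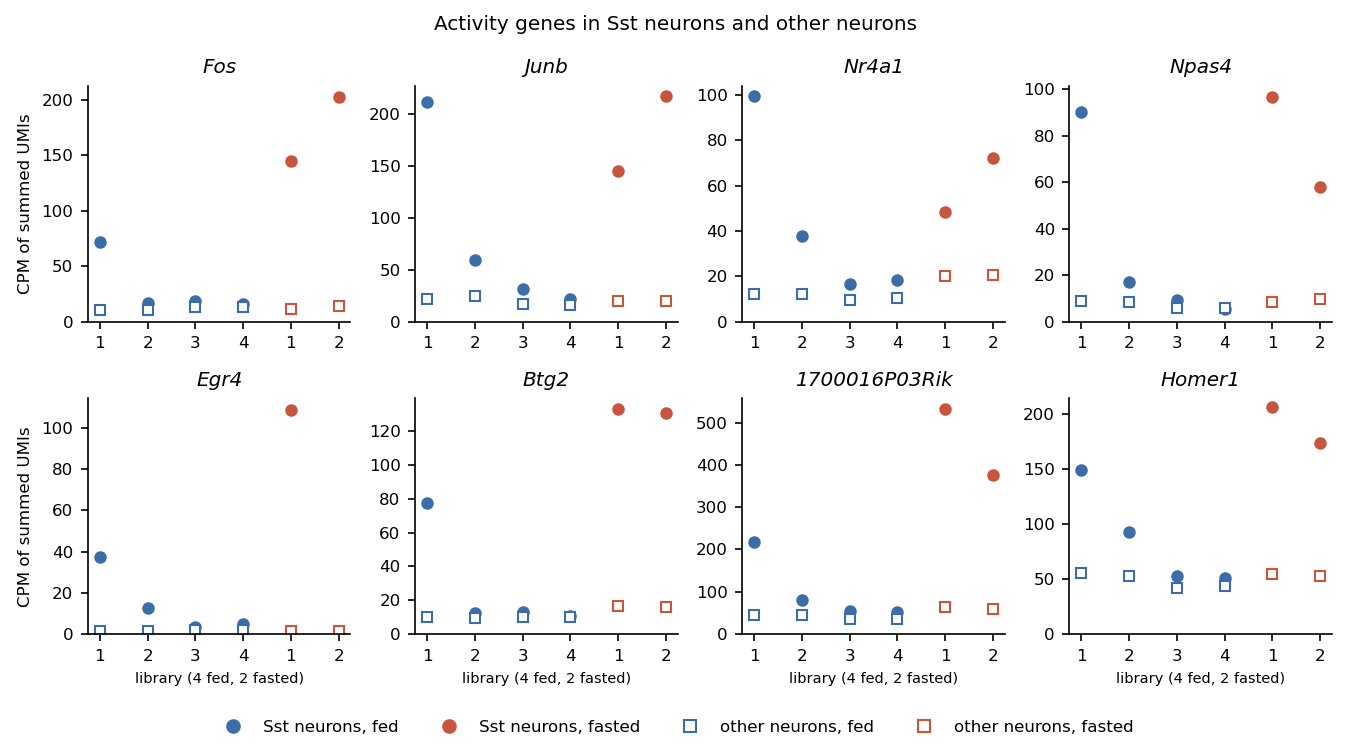
CPM of summed UMIs of 8 activity genes in Sst neurons (filled) and other neurons (open) of each library (4 fed, 2 fasted). Fasted Sst neurons lie above other neurons of the same libraries except for Egr4 in fasted library 2, and fed library 1 is the highest fed library in each panel.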

How the data were processed

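Nuclei were profiled with 10x Genomics 3′ chemistry. The authors mapped reads with Cell Ranger 5.0.1 to GRCm38 (mm10) and deposited raw UMI counts per gene and nucleus. The members and the gene lists were chosen with earlier results of these data known. Doublets were scored by simulated neighbours within each library (upper 5%) and kept. UMIs were summed per library and class, then per pool, and a gene was tested if 2 or more libraries held 10 counts of it, with edgeR 4.0.16 (TMM, quasi-likelihood, Benjamini-Hochberg, 0.05) in R 4.3.3; the genes of the rule were left out. Between classes the text names, per direction, the 10 called genes whose smallest within-library ratio was largest (mean of at least 50 CPM in the higher class), and for fasting the 10 with the widest gap between fasted and fed libraries (at least 20 CPM), leaving out Gm and Rik models, mitochondrial and ribosomal protein genes, besides list members on which a result turns. The interaction genes were named because they were called. DESeq2 1.42.0, other size factors, filters, Sst limits and left-out libraries were alternatives. The tests were tried on simulated counts. Clustering used scanpy 1.11.5 (20 components, 15 neighbours, Leiden resolution 1). Shares were compared with exact permutation tests over libraries. No test took nuclei as replicates. P-values across genes rest on 3 pools and those of shares on 6 libraries, which are tubes of these pools, and the spread of the fasted pool was taken to equal that of the fed pools. In the comparisons of classes of nuclei the spread was estimated almost wholly over genes together. The spread of a single gene between pools thus hardly enters those p-values. Values of a few list members are not reported here.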

Additional observations from a re-analysis of the deposited data

Results flagged for a closer look

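Fed library 1 stood apart from the other fed libraries in the Fos level of its Sst neurons, at 71.5 CPM against 16.9, 19.1 and 16.3; its 23 Fos UMIs came from 8 of 67 nuclei. Dixon's criterion used here singles out about 1 in 20 groups of samples by chance.

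The interaction test called 18 genes (edgeR, adjusted p under 0.05; each a log2 difference, fasted against fed in Sst neurons minus the same in other neurons). The fasted side is 1 pool, whose spread is assumed from the fed pools, and 0 of the 18 calls held in every fit that left out a library. Those with a more positive difference in Sst neurons were Fos at 2.82, Gadd45g at 2.20, 1700016P03Rik at 2.15, Btg2 at 2.00, Cacng3 at 1.77, Olfm3 at 1.17, Tnfrsf23 at 3.37, Inhba at 3.16, Prtg at 3.00, Thsd4 at 2.02 and Tyr at 7.73. Single nuclei gave many of the fasted counts: 28 of 44 of 1700016P03Rik in fasted library 1, 19 of 36 of Olfm3 and 5 of 7 of Gadd45g in fasted library 2, 9 of 11 and 6 of 6 of Tnfrsf23 in fasted libraries 1 and 2, 9 of 10 of Inhba and 14 of 17 of Prtg in fasted library 1, 16 of 27 of Thsd4 in fasted library 2, and all 6 counts of Tyr came from 1 nucleus. Those with a more negative difference in Sst neurons were Rgs6 at -3.88, Sox2ot at -2.72, Tafa1 at -2.27, Grik1 at -2.20, Alcam at -1.61, Galnt13 at -1.43 and Slc35f1 at -1.18. The values of Rgs6 and Tyr, and that of Inhba without fasted library 1, are fitted against counts at or near 0 and are no bound on the change. Without fasted library 1 Inhba, with 0 counts in fasted library 2, was fitted at -10.15, Prtg was at 0.41 and Gadd45g at 1.18. Without fasted library 2 Thsd4 reversed to -1.09 and Tyr to -4.64, and Rgs6 was at -14.12.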

How the results depend on the processing

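The fasting results rest on 20 fasted nuclei and differ widely between pairings of the fed libraries. Fed libraries 3 and 4, with 85.6% of members, carry much of the other results. Of the results for named genes, the alternatives, DESeq2 among them except for the interaction, gave the same direction and call in 769 of 830 alternatives for Sst against other neurons (60 lost the call), in 417 of 510 for GABA against Slc17a6 members (93 lost it), in 159 of 175 for fasting (14 gained a call) and in 134 of 234 for the interaction (97 lost it). Direction reversed for Slc32a1, at -0.11 with GABA nuclei on both sides. With at least 5 Sst UMIs and 10 per 10000 the fits gave Tbc1d8b at -6.74 and Dennd4b at -7.43. Only 3 and 1 nuclei of fasted libraries 1 and 2 were left there, so these folds are no measure of the change. With a library left out Tyr ranged from -4.64 to 12.24 and Thsd4 from -1.09 to 2.89, both lowest without fasted library 2. Inhba ranged from -10.15 to 3.94, lowest without fasted library 1, where the fasted library left held 0 counts of it. The difference in GABA share reversed to -3.98 percentage points when thinned and ranged from -0.527 to 7.55 with a library left out. The causes were not tested.

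Counts of genes higher and lower were, for Sst against other neurons, 3238 and 2415 with pools 1+3 and 2+4, 3211 and 2410 with pools 1+4 and 2+3, 613 and 1199 with 6 separate libraries, 112 and 75 with DESeq2, 209 and 202 with the stricter Sst limits, 264 lower with GABA nuclei only, 165 and 226 without fed libraries 3 and 4, and 203 to 385 and 178 to 340 with a library left out. For GABA against Slc17a6 members they were, in the same order of pools and libraries, 226 and 175, 211 and 173, and 201 and 132, then 3 and 6 with DESeq2, 33 higher with 2 transmitter UMIs, 13 and 18 without libraries 3 and 4, and 13 to 74 and 10 to 77 with a library left out. For the interaction they were 21 higher with pools 1+2 and 3+4, 40 and 28 and 53 and 38 with the other pairings, 22 and 17 with 6 libraries, 2 and 2 without libraries 3 and 4, and 0 to 15 and 0 to 14 with a library left out. For fasting they were 297 and 824 with pools 1+3 and 2+4, 210 and 645 with pools 1+4 and 2+3, 4 lower without a filter on low counts, 3 lower without libraries 3 and 4, and 0 with any library left out. The alternatives without libraries 3 and 4, and all but the pairings and separate libraries for the interaction, were chosen after seeing the data.

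Libraries numbered 1 and 2 in both groups share only a number. With that number as a replicate block, 1 gene was higher and 3 lower of 4780 tested, and the deviations of fed 1 and fasted 1 from their group means had a correlation of -0.0239 over 3736 genes.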
